A study of Danio rerio with 2 samples.

Results

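The genes described here are 9 transcription factor genes known from the developing eye, chosen by name: *crx* (ENSDARG00000011989), *otx5* (ENSDARG00000043483), *vsx1* (ENSDARG00000056292), *rx1* (ENSDARG00000071684), *rx2* (ENSDARG00000040321), *rx3* (ENSDARG00000052893), *six7* (ENSDARG00000070107), *tbx2b* (ENSDARG00000006120) and *nr2e3* (ENSDARG00000045904). All 9 were among the 32057 genes of the count tables, each under 1 identifier, and their molecules were counted in every cell type in which the eye and the brain could be told apart by other genes. The study prepared whole brains of zebrafish at 3 dpf for droplet-based single-cell RNA sequencing and made 2 libraries. The mutant library came from *rb1*smu2/smu2 mutants, which carry the smu2 allele of *rb1* on both chromosomes, and the other came from their siblings, labelled wt. *rb1* encodes the retinoblastoma protein, which holds back entry into the cell cycle. Brains of a genotype went into 1 library, their number is not given in the sources used here, and there was no repeat. So no difference between genotypes or between cell types could be tested against animals, and no p-value is given. The intervals printed are exact 95% intervals that cover counting error only.

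In the vertebrate retina, progenitors that divide give rise to ganglion, amacrine, horizontal, bipolar and photoreceptor cells and to Mueller glia. Crx and the other Otx factors switch on the genes of photoreceptors and bipolar cells, which both descend from Otx-expressing precursors. Vsx1 is a homeodomain factor of bipolar cells. The Rx factors set up the eye field, where *rx3* acts first in zebrafish and is also used in the hypothalamus, while *rx1* and *rx2* work later in the retina. Six7 is a cone factor of zebrafish needed for green opsin, Tbx2b favours the UV cone fate in zebrafish, and Nr2e3 is a nuclear receptor that promotes the rod fate and represses cone genes in mouse.

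Although the labelled tissue was whole brain and the labelled cell type neuron, 1672 of 7873 retained mutant cells (21.2%, interval 20.3–22.2%) and 1474 of 7539 retained sibling cells (19.6%, 18.7–20.5%) carried the markers of a retinal type. The paper also names retinal clusters among its cells, such as ganglion cells, photoreceptor precursors and Mueller glia. A cell was placed in a class when at least 3 genes of that class's marker list had a unique molecular identifier (UMI, the tag that counts 1 RNA molecule once) and no other class had as many. None of the 9 genes was a marker. Photoreceptors numbered 457 in mutants and 355 in siblings, beside 316 and 466 bipolar cells, 214 and 171 retinal progenitors, 2924 and 2675 brain cells, and 685 and 482 cells of the other retinal types. All 15 photoreceptor markers were over 2-fold above brain in both libraries, as were 12 of 15 bipolar markers in mutants and 14 in siblings, and 8 of 12 progenitor markers in mutants and 9 in siblings. The cells were picked by these same markers, so these counts describe the gates and are no independent check of the classes. A further 2068 mutant and 1841 sibling cells met no class, and these were shallow, with a median of 1722 and 1336 UMIs against 3599 and 3312 over all retained cells. The retained cells held 31962765 UMIs in mutants and 28820632 in siblings, and 15 cell barcodes occurred in both. *rb1* itself had 173 UMIs in mutants and 172 in siblings, so its RNA level did not tell the labels apart. Levels are given as UMIs of a gene in every 1000000 UMIs of the class (CPM), and each gene is compared only with itself.

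**Figure D1:**
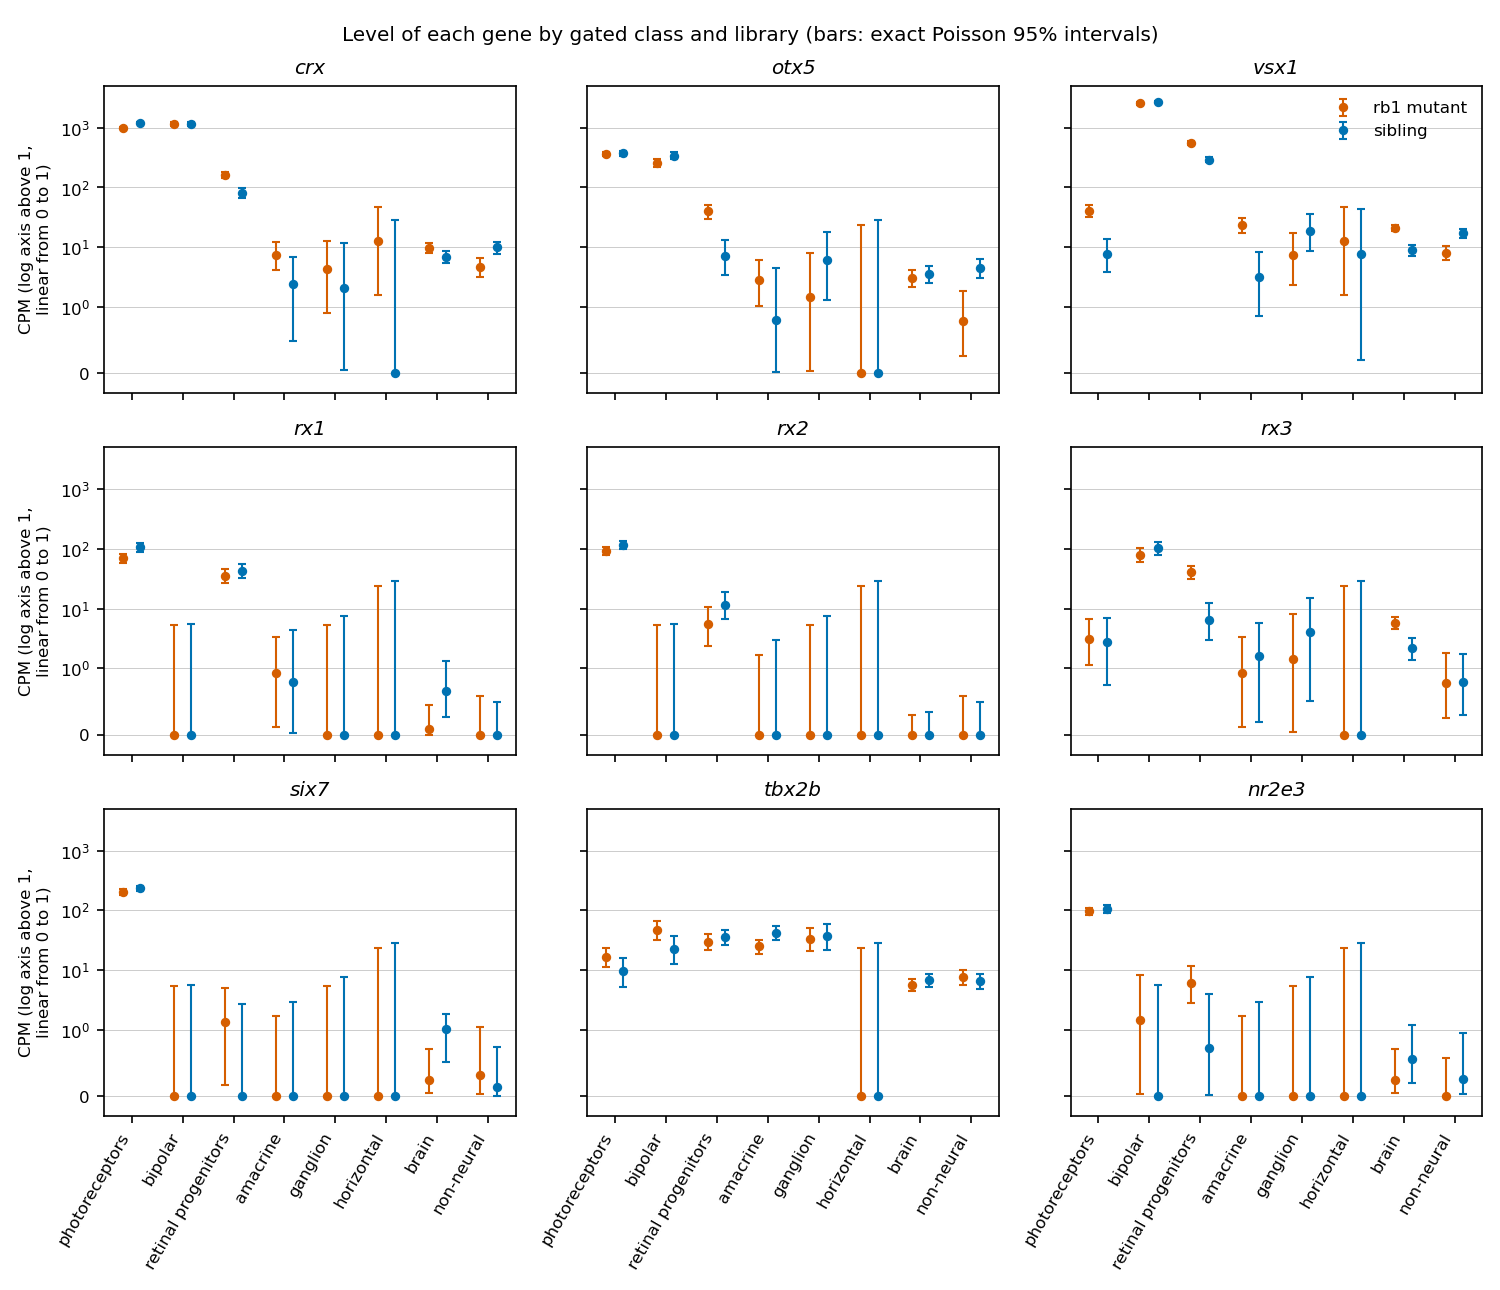
Level of each of the 9 genes in CPM (vertical axis, logarithmic above 1 and linear from 0 to 1) in 8 gated classes, with the mutant library on the left of each pair and the sibling library on the right. Bars are exact Poisson 95% intervals. *crx* and *otx5* were highest in photoreceptors and bipolar cells, *vsx1* in bipolar cells, *rx1*, *rx2*, *six7* and *nr2e3* in photoreceptors, and *tbx2b* was low and spread over the retinal classes.

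*crx* was carried by nearly every photoreceptor and by most bipolar cells. Photoreceptors held 1934 *crx* UMIs in mutants and 1732 in siblings, which was 988 CPM (944–1033) and 1200 CPM (1144–1257). Bipolar cells had 1147 CPM (1068–1231) in mutants and 1165 CPM (1084–1250) in siblings. The bipolar interval lay above that of photoreceptors in mutants, and the intervals of both classes overlapped in siblings. Brain cells had 9.72 CPM (8.06–11.6) in mutants and 6.85 CPM (5.37–8.61) in siblings, and photoreceptors were 102-fold (84.4–123) and 175-fold (139–225) above them. At least 1 *crx* UMI was found in 96.1% of mutant and 95.8% of sibling photoreceptors, at median depths of 3668 and 3594 UMIs. The share was 1.78% of mutant and 1.16% of sibling brain cells, at median depths of 3799 and 3649. With every cell thinned to 1000 UMIs, which left out 5 mutant and 3 sibling photoreceptors and 340 mutant and 339 sibling brain cells, it was 65.0% and 67.0% of photoreceptors against 1.01% and 0.599% of brain cells. Retinal progenitors lay between, with 162 CPM (142–184) in mutants and 80.1 CPM (65.9–96.4) in siblings. Amacrine, ganglion and horizontal cells had 12.9 CPM or less in either library, where their intervals overlapped that of brain.

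*otx5*, an Otx gene of zebrafish eye and pineal gland, followed *crx*. Photoreceptors held 719 UMIs in mutants and 535 in siblings, which was 367 CPM (341–395) and 371 CPM (340–403). Bipolar cells had 261 CPM (224–302) in mutants and 340 CPM (297–388) in siblings. The interval of bipolar cells lay below that of photoreceptors in mutants, and the 2 intervals overlapped in siblings. The gene had 3.08 CPM in mutant and 3.56 CPM in sibling brain cells. Of the photoreceptors with an *otx5* UMI, 307 of 320 mutant cells (95.9%, 93.2–97.8%) and 238 of 244 sibling cells (97.5%, 94.7–99.1%) also had a *crx* UMI, shares that are close to that of *crx* among all photoreceptors. In bipolar cells 105 of 121 mutant and 117 of 153 sibling cells with *otx5* also had *crx*. These shares were again close to those among all bipolar cells, 270 of 316 in mutants and 351 of 466 in siblings.

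The pineal gland has photoreceptors of its own, which also use Otx factors, but no cell of either library was classed as pineal. At least 3 pineal markers were found in 3 mutant cells and 1 sibling cell, none of which met the rule for the class. The pineal opsin *exorh* had 18 UMIs in 16 mutant cells and 720 UMIs in 18 sibling cells. A single sibling cell held 703 of these and was placed with the photoreceptors, where it added 7 *otx5* and 7 *crx* UMIs. The class held 535 *otx5* and 1732 *crx* UMIs in siblings, so that cell took a small share of either.

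*six7*, *nr2e3*, *rx1* and *rx2* marked photoreceptors with little or no RNA in bipolar cells, and *rx1* was also found in retinal progenitors. *six7* had 399 UMIs in mutant and 338 in sibling photoreceptors, which was 204 CPM (184–225) and 234 CPM (210–260). There was no *six7* UMI in the bipolar, ganglion, amacrine or horizontal cells of either library, which for bipolar cells allows up to 4.40 CPM in mutants and 4.54 CPM in siblings by the limit of 3 counts. Brain cells had 3 UMIs in mutants and 11 in siblings. *nr2e3* had 189 and 153 UMIs in mutant and sibling photoreceptors, which was 96.5 CPM (83.3–111) and 106 CPM (89.8–124), with 1 UMI in mutant and 0 in sibling bipolar cells. Both genes were found in a minority of photoreceptors, *six7* in 41.8% of mutant and 43.9% of sibling cells and *nr2e3* in 25.6% and 27.0%. In brain cells these shares were 0.103% and 0.187% for *six7* and 0.0684% and 0.150% for *nr2e3*. After thinning, 18.8% of mutant and 20.2% of sibling photoreceptors kept a *six7* UMI and 6.42% and 7.95% an *nr2e3* UMI.

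Among retained cells, *rx2* had few UMIs outside photoreceptors. That class held 179 of its 194 UMIs in mutants and 167 of 189 in siblings, at 91.4 CPM (78.5–106) and 116 CPM (98.8–135). Bipolar, ganglion, amacrine, horizontal, brain and non-neural cells had none in either library. With the limit of 3 counts for brain, photoreceptors were at least 376-fold higher in mutants and at least 411-fold higher in siblings. That bound leaves out counting error in photoreceptors, with which the lower 95% limits were 303-fold and 331-fold. With clusters in place of gates brain cells had 4 *rx2* UMIs in mutants and 3 in siblings, and the ratios were 311 (119.5–1155) and 317 (106–1550). *rx1* had 136 and 153 UMIs in mutant and sibling photoreceptors, 69.5 CPM (58.3–82.2) and 106 CPM (89.8–124). Unlike *rx2*, *rx1* had a sizeable share of its retained UMIs in retinal progenitors, with 52 in mutants and 60 in siblings. That was 35.5 CPM (26.5–46.5) and 43.3 CPM (33.0–55.7). *rx2* had 8 and 16 UMIs in retained progenitors, 5.46 CPM (2.36–10.8) and 11.5 CPM (6.598–18.7). Progenitors among the barcodes outside the filters held more of it, 22 UMIs in mutants and 31 in siblings, beside 40 and 64 of *rx1*. The contrast of the 2 genes thus holds for the retained cells. Of the photoreceptors with an *rx1* UMI, 41 of 105 in mutants and 48 of 102 in siblings also had an *rx2* UMI, against 129 of 457 and 117 of 355 photoreceptors in all.

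*vsx1* was a bipolar gene in these libraries and also marked many progenitors. Bipolar cells held 1745 UMIs in mutants and 1781 in siblings, which was 2557 CPM (2438–2680) and 2694 CPM (2570–2822). Retinal progenitors followed with 562 CPM (524–602) in mutants and 293 CPM (265–323) in siblings. A *vsx1* UMI was present in 83.5% of mutant and 75.1% of sibling bipolar cells, at median depths of 1989.5 and 1320 UMIs, and in 75.6% and 71.0% after thinning, which left out 9 mutant and 46 sibling bipolar cells. It was present in 63.1% of mutant and 42.1% of sibling progenitors, at median depths of 5728 and 7282 UMIs. After thinning these shares were 39.3% and 21.3%. In brain cells the share was 2.46% in mutants and 2.13% in siblings, or 1.08% and 0.771% after thinning. The level in non-neural cells was 8.13 CPM in mutants and 17.1 CPM in siblings, a value that can hold free RNA. Brain cells had 21.2 CPM (18.7–23.9) and 8.91 CPM (7.21–10.9), of which 72 of 261 mutant UMIs lay in 11 hypothalamic cells and 4 of 95 sibling UMIs in 3. A single mutant cell held 30 of the 72, and 5 of the 11 mutant cells also had a *crx* UMI. Whether these 11 cells were hypothalamic was not tested.

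The gates are strict, and for *vsx1* and *rx3* they left out much of the gene. Retinal classes held 65.0% of mutant and 65.8% of sibling *crx* UMIs, 45.1% and 45.7% of *vsx1* UMIs, 24.6% and 21.0% of *rx3* UMIs, and 96.4% and 97.4% of *rx2* UMIs. Cells of no class held 47.0% and 47.6% of *vsx1* and 58.9% and 68.9% of *rx3*. Of the 472 mutant and 448 sibling cells of no class with a *vsx1* UMI, 353 and 334 also had *crx*. With whole clusters in place of single-cell gates, retinal clusters held 93.6% and 97.3% of *crx*, 92.5% and 95.9% of *vsx1* and 78.2% and 90.7% of *rx3*. Most *crx*, *vsx1* and *rx3* UMIs of cells outside the gates thus lay in clusters named for a retinal type. For *rx3*, many lay in a bipolar cluster of each library in which few cells were classed as bipolar. These were 42 of 313 cells in mutants and 10 of 170 in siblings. Without that cluster, bipolar clusters held 129 of their 290 *rx3* UMIs in mutants and 138 of 369 in siblings. Whether its cells of no class were bipolar was not tested.

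**Figure D2:**
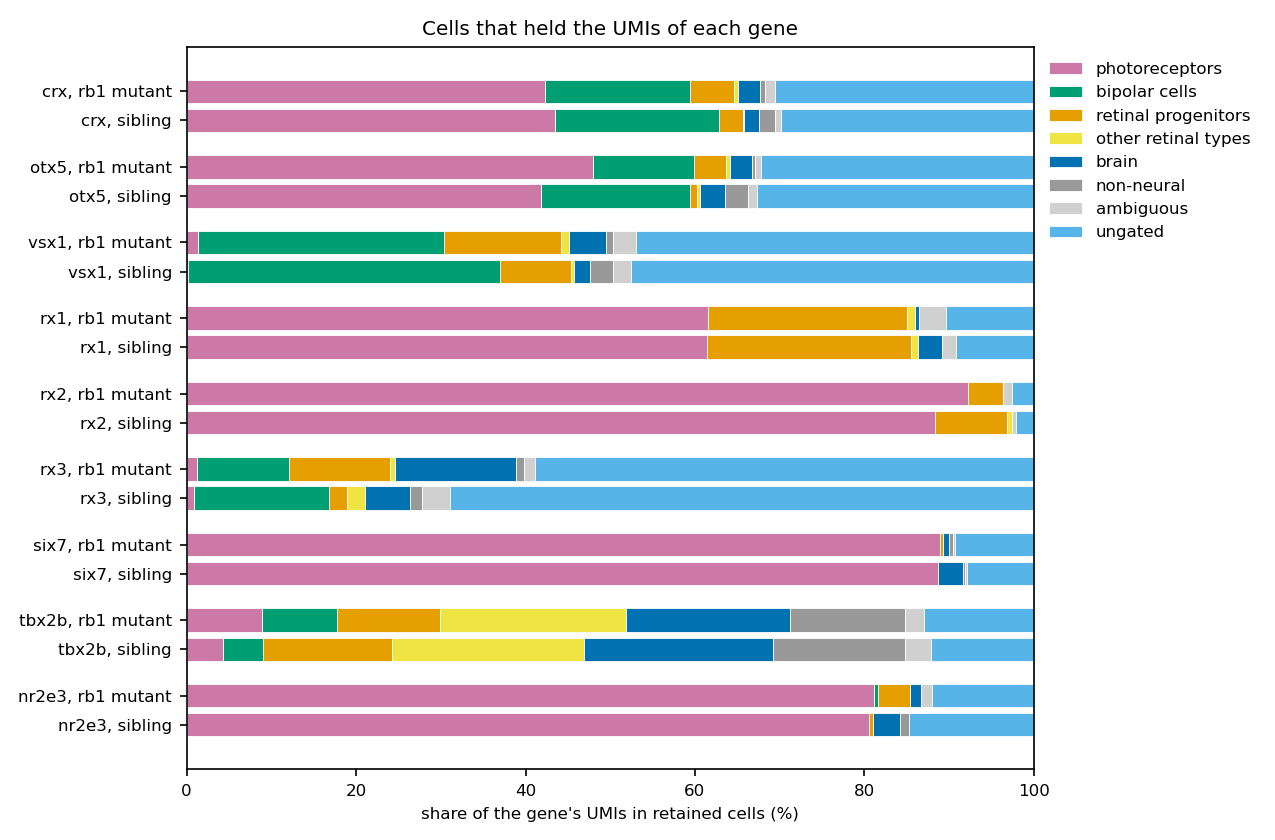
Share of each gene's UMIs in retained cells (horizontal axis, %) held by each class, with the mutant library above the sibling library for every gene. Photoreceptors held 88.9% of mutant and 88.7% of sibling *six7* UMIs, 92.3% and 88.4% of *rx2* and 81.1% and 80.5% of *nr2e3*, while cells of no class held most *rx3* UMIs and *tbx2b* was divided over retinal, brain and non-neural cells.

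*rx3* was found in few cells, 139 of the mutant and 130 of the sibling library. Most of its UMIs were in cells of no class, 297 in 76 mutant and 295 in 74 sibling cells, of which 66 and 63 also had *vsx1*. In the retina, bipolar cells had 55 UMIs in 16 mutant cells and 68 UMIs in 23 sibling cells, 80.6 CPM (60.7–105) and 103 CPM (79.9–130). In the brain, hypothalamic cells had 57 UMIs in 17 mutant cells and 19 UMIs in 8 sibling cells, 38.6 CPM (29.2–49.99) and 19.7 CPM (11.8–30.7). Brain cells outside the hypothalamus had 15 UMIs in mutants and 4 in siblings, 1.38 CPM and 0.413 CPM. Among the *rx3* bipolar cells a *vsx1* UMI was present in 15 of 16 in mutants and 19 of 23 in siblings, against 264 of 316 and 350 of 466 bipolar cells in all. A *crx* UMI was present in 11 of 16 and 19 of 23 of them, while *rx1*, *rx2* and *six7* had no UMI in any bipolar cell of either library. The gene with the largest ratio to the other bipolar cells was *nxph2b*, with 15 UMIs in the 16 mutant cells against 4 in the other 300, and 26 UMIs in the 23 sibling cells against 17 in the other 443. *bhlhe22*, a transcription factor gene, was another of these leading genes, with 17 UMIs against 42 in mutants and 37 against 79 in siblings. So was *glula*, a Mueller glia gate marker, with 9 UMIs against 22 in mutants and 31 against 80 in siblings. These cells were picked by their *rx3* UMI and these genes for their ratio, so the values describe them and test nothing.

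*tbx2b* was spread over several retinal classes. It had 33.6 CPM (21.3–50.4) in mutant and 37.3 CPM (22.1–58.9) in sibling ganglion cells, 46.9 CPM (32.1–66.2) and 22.7 CPM (12.7–37.4) in bipolar cells, and 30.04 CPM (21.8–40.3) and 35.3 CPM (26.2–46.7) in progenitors. Amacrine cells had 25.0 CPM (18.8–32.6) in mutants and 42.2 CPM (31.6–55.2) in siblings. Within each library the intervals of these 4 classes overlapped in every pair, which does not show equal levels. The highest value was that of bipolar cells in mutants and of amacrine cells in siblings. Ratios were not computed for most of these pairs, and no order is given. Photoreceptors had 32 UMIs in mutants and 14 in siblings, 16.3 CPM (11.2–23.1) and 9.70 CPM (5.30–16.3). That interval lay below the bipolar one in mutants and below the ganglion, amacrine and progenitor ones in siblings. Brain cells had 5.67 CPM (4.42–7.17) and 6.75 CPM (5.28–8.505), and non-neural cells 7.66 CPM and 6.59 CPM.

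The number of genes 2-fold above brain sets these levels in context. Among genes with at least 20 UMIs over the 2 classes compared, 8.41% were at least 2-fold higher in mutant photoreceptors than in mutant brain, and 9.88% in siblings. Of the 9 genes, 7 met this in mutants and 6 in siblings, *tbx2b* being the difference at 2.88-fold (1.83–4.44) and 1.44-fold (0.748–2.57). *vsx1* and *rx3* did not meet it in either library. For bipolar cells over brain the shares of all genes were 9.23% in mutants and 13.6% in siblings, and 5 of 5 genes with enough UMIs met it in both, namely *crx*, *otx5*, *vsx1*, *rx3* and *tbx2b*. The genes were chosen as known retinal genes, so these counts describe the choice as well. The paper also lists *crx*, *otx5* and *six7* as markers of its photoreceptor precursor cluster. That list holds several photoreceptor gate markers used here, such as *gngt2a*, *tulp1a* and *rs1a*. For photoreceptors, the genes and the gate are thus not independent choices.

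Photoreceptors were not uniform for these genes, and part of the variation followed 2 measures that no gate used. These were UMIs of an opsin, the light-sensing protein that a mature cone or rod makes, and UMIs of genes of dividing cells. At least 2 UMIs of an opsin were present in 118 mutant and 136 sibling photoreceptors. *rx1* and *rx2* were higher in these cells. *rx1* had 129 CPM with and 48.8 CPM without opsin in mutants, a ratio of 2.65 (1.86–3.77), and 159 CPM and 71.7 CPM in siblings, a ratio of 2.22 (1.59–3.11). For *rx2* the ratios were 2.09 (1.53–2.84) in mutants and 2.205 (1.60–3.04) in siblings. *otx5* and *nr2e3* were lower in cells with opsin. *otx5* had 227 CPM with and 416 CPM without opsin in mutants and 232 CPM and 460 CPM in siblings, ratios of 0.546 (0.443–0.668) and 0.503 (0.410–0.614). The ratios of *nr2e3* were 0.483 (0.309–0.729) and 0.275 (0.168–0.430).

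A split by cycling genes, at least 2 of 12 such as *mki67*, *pcna* and the *mcm* genes of DNA replication, was the other. Such UMIs were present in 168 of 457 mutant photoreceptors (36.8%, 32.3–41.4%) and 51 of 355 sibling photoreceptors (14.4%, 10.9–18.5%), or 15.7% and 10.8% after thinning. *nr2e3* had 136 CPM in cells with and 59.5 CPM in cells without cycling genes in mutants, and 241 CPM and 65.7 CPM in siblings, ratios of 2.29 (1.67–3.16) and 3.67 (2.64–5.11). For *otx5* the ratios were 1.68 (1.44–1.96) in mutants and 1.78 (1.48–2.14) in siblings. *rx1* was lower in cycling cells, with ratios of 0.412 (0.276–0.605) and 0.209 (0.0937–0.408), as was *rx2* with 0.699 (0.511–0.952) and 0.236 (0.115–0.434). *crx* varied less, with ratios of 0.884 (0.808–0.968) and 0.664 (0.583–0.755). The intervals of *six7* held 1, at 1.16 (0.947–1.42) and 1.18 (0.913–1.51). Cycling photoreceptors were deeper than the others, with medians of 5296.5 against 3370 UMIs in mutants and 6404 against 3372 in siblings, and the part of depth in these ratios was not tested.

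**Figure D3:**
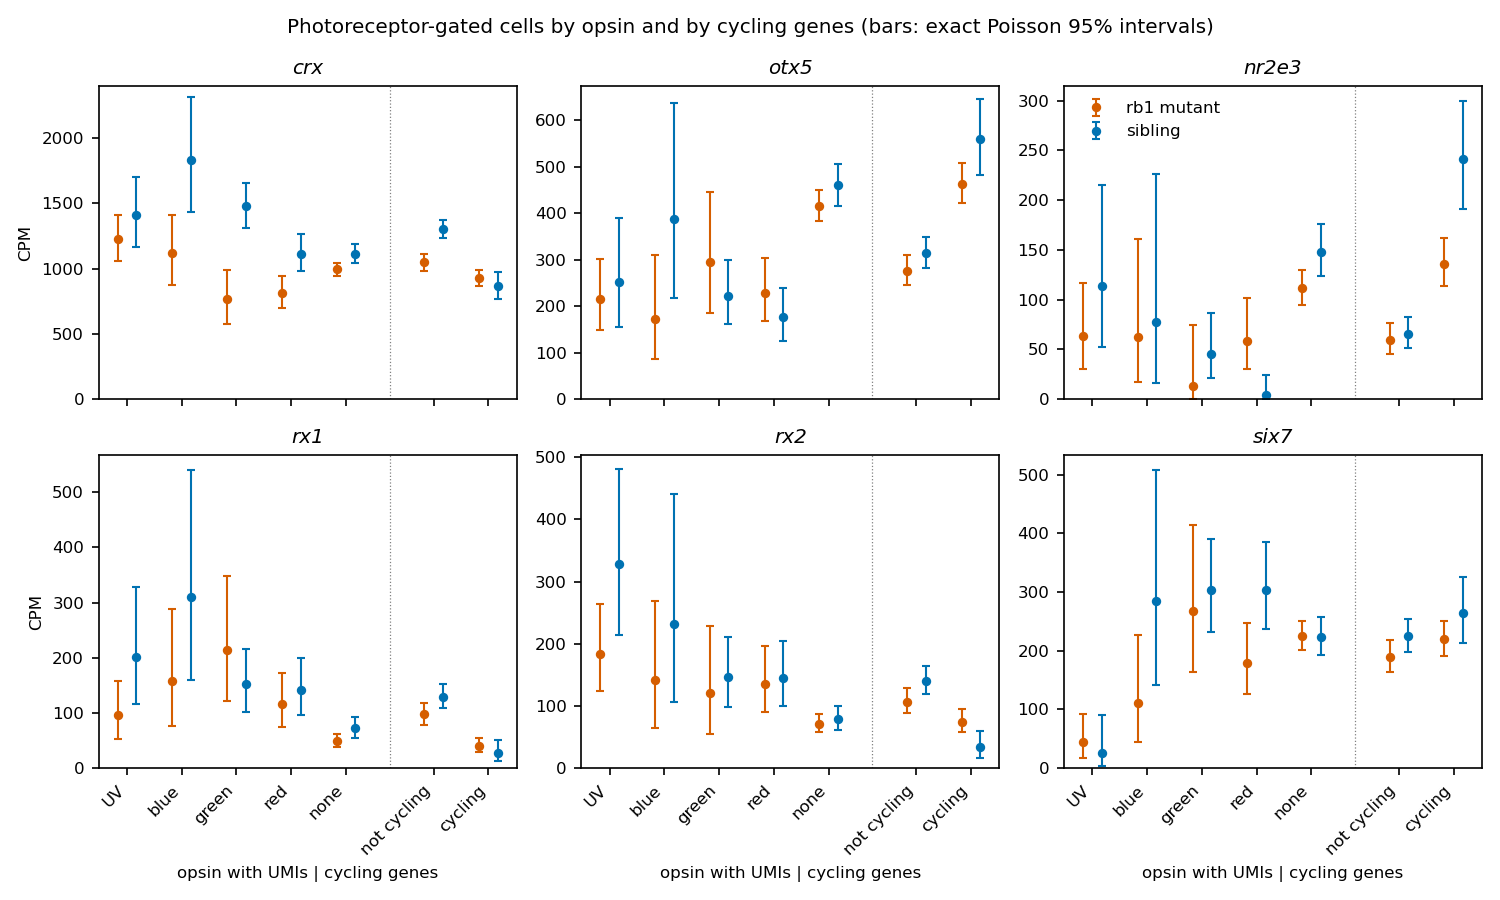
Level in CPM (vertical axis, from 0) of 6 genes in photoreceptors grouped by the opsin with most UMIs, or by the presence of cycling genes, with the mutant library on the left of each pair and the sibling library on the right. Bars are exact Poisson 95% intervals. Among the cone groups *six7* was lowest in UV cones, where its interval overlapped that of blue cones in mutants. *rx1* and *rx2* were higher and *otx5* and *nr2e3* lower in cells with an opsin, and the cycling cells showed the opposite pattern for these 4 genes.

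Among the cone types, *six7* was low in UV cones. Cells whose leading opsin was UV (*opn1sw1*) numbered 36 in mutants and 19 in siblings, and they had 7 and 2 *six7* UMIs, 44.4 CPM (17.9–91.6) and 25.2 CPM (3.05–91.1). Red cones had 179 CPM (126–247) in 43 mutant cells and 304 CPM (236–385) in 50 sibling cells. Green cones had 268 CPM (164–414) in 20 mutant cells and 304 CPM (232–391) in 50 sibling cells. Blue cones had 110 CPM (44.2–227) in 19 mutant cells and 284 CPM (142–508) in 12 sibling cells. The intervals of UV and blue cones overlapped in mutants but not in siblings. UV over red was 0.248 (0.0933–0.564) in mutants and 0.0830 (0.00985–0.311) in siblings. For *rx2* the order was turned, with 184 CPM in UV and 136 CPM in red cones of mutants and 328 CPM and 145 CPM in siblings. The ratio of *rx2* was 1.36 (0.780–2.37) in mutants, which holds 1, and 2.26 (1.30–3.89) in siblings. *tbx2b* had only 3 UMIs in mutant and 1 in sibling UV cones, so whether it differs between cone types was not detectable at this depth. Only 5 sibling cells led with the rod opsin *rho*, and they had 12 *otx5* UMIs and 0 *six7* UMIs.

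The genotypes were compared first over all retained cells, where the number of cells of a type and the RNA per cell cannot be told apart. The ratio of mutant to sibling CPM was 1.04 (0.993–1.08) for *crx*, 1.06 for *otx5*, 1.12 (1.07–1.16) for *vsx1*, 0.8003 (0.665–0.963) for *rx1*, 0.926 for *rx2*, 1.06 for *rx3*, 1.06 for *six7*, 1.01 for *tbx2b* and 1.11 for *nr2e3*. Of all 18069 genes with at least 20 UMIs, 10% differed at least 2-fold, and 0 of the 9 genes did. The median ratio of the 9 genes was 1.06 and that of all genes 0.911. The sides of 1 on which *crx*, *otx5*, *vsx1* and *rx3* fell depended on the cells counted. With every cell thinned to 1000 UMIs their ratios were 0.866, 0.906, 0.793 and 0.792, and without cells that had cycling genes 0.881, 0.786, 0.749 and 0.782.

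Within photoreceptors, *rx1* was 0.656 (0.516–0.831), *rx2* 0.790 (0.637–0.982), *crx* 0.824 (0.771–0.879), *six7* 0.871 (0.751–1.01), *nr2e3* 0.911 (0.732–1.13) and *otx5* 0.991 (0.885–1.11) of the sibling level. Of the 7090 genes with enough UMIs in photoreceptors 8.56% differed at least 2-fold, and 1 of 8 of the factors did, which was *vsx1*. It had 79 UMIs in 16 mutant cells and 11 UMIs in 6 sibling cells, a ratio of 5.30 (2.81–11.04), which turned to 0.892 (0.656–1.21) with clusters, at 82 and 97 UMIs, and was 1.56 after thinning, at 8 and 4 UMIs. The 14 mutant cells that held both *crx* and *vsx1* had a median of 6014 UMIs against 3668 for the class, and whether they were droplets with more than 1 cell was not tested. The ratios just below 1 depended on how the cells were chosen. Clusters in place of gates gave 469 mutant and 505 sibling photoreceptors, and the ratios were then 0.939 (0.740–1.19) for *rx1*, 1.12 for *rx2*, 1.11 (1.04–1.19) for *crx*, 1.25 for *six7*, 1.16 for *nr2e3* and 1.24 for *otx5*. These clusters were not equally pure. Of the 205 cells of one sibling cluster 88 had a class, and 47 of the 88 were photoreceptors and 17 brain cells, while in the 3 mutant clusters 315 of 316, 76 of 76 and 54 of 54 were photoreceptors. With only clusters in which at least 80% of the classed cells were of the named class, an alternative added after seeing the data, the ratios were 0.537 (0.422–0.684) for *rx1*, 0.643 for *rx2*, 0.767 (0.717–0.822) for *crx*, 0.953 for *six7*, 1.4999 for *nr2e3*, 1.28 for *otx5* and 5.71 (2.76–13.7) for *vsx1*. Because of these turns no direction between the genotypes is given for *crx*, *rx2*, *six7*, *nr2e3*, *otx5* or *vsx1*, and for *rx1*, below 1 with gates and both kinds of clusters, the interval held 1 with all clusters.

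The split by opsin changed some of these values. Among photoreceptors with opsin, *six7* was 141 CPM in mutants and 251 CPM in siblings, a ratio of 0.563 (0.417–0.754), and among those without it was 225 CPM and 223 CPM, a ratio of 1.01 (0.843–1.21). The leading opsins of these cells differed in mix between the 2 libraries. A kind was called by its opsin UMIs, and *opn1mw1*, *opn1mw2* and *opn1lw2* were at least 2-fold lower in mutant photoreceptors. Fewer cones of a kind and less opsin RNA in each cone thus cannot be told apart here. UV opsin led in 36 of 118 mutant and 19 of 136 sibling cells, and green opsin in 20 and 50. Within a kind, *six7* was 179 CPM in mutant and 304 CPM in sibling red cones. It was 110 and 284 CPM in blue, 268 and 304 CPM in green, and 44.4 and 25.2 CPM in UV cones. The intervals of the 2 libraries overlapped in each kind, in red cones only narrowly, at 126–247 CPM in mutants and 236–385 CPM in siblings. Such overlap does not show equal levels, and no ratio between the libraries was computed within a kind. The part of the mix of cones in the ratio of *six7* was not tested. For *nr2e3* the ratio was 0.565 (0.424–0.756) among cycling photoreceptors and 0.905 (0.633–1.29) among the others. *rx1* was 0.750 (0.574–0.976) among photoreceptors without cycling genes and *crx* was 0.805 (0.743–0.872), both within the gates.

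**Figure D4:**
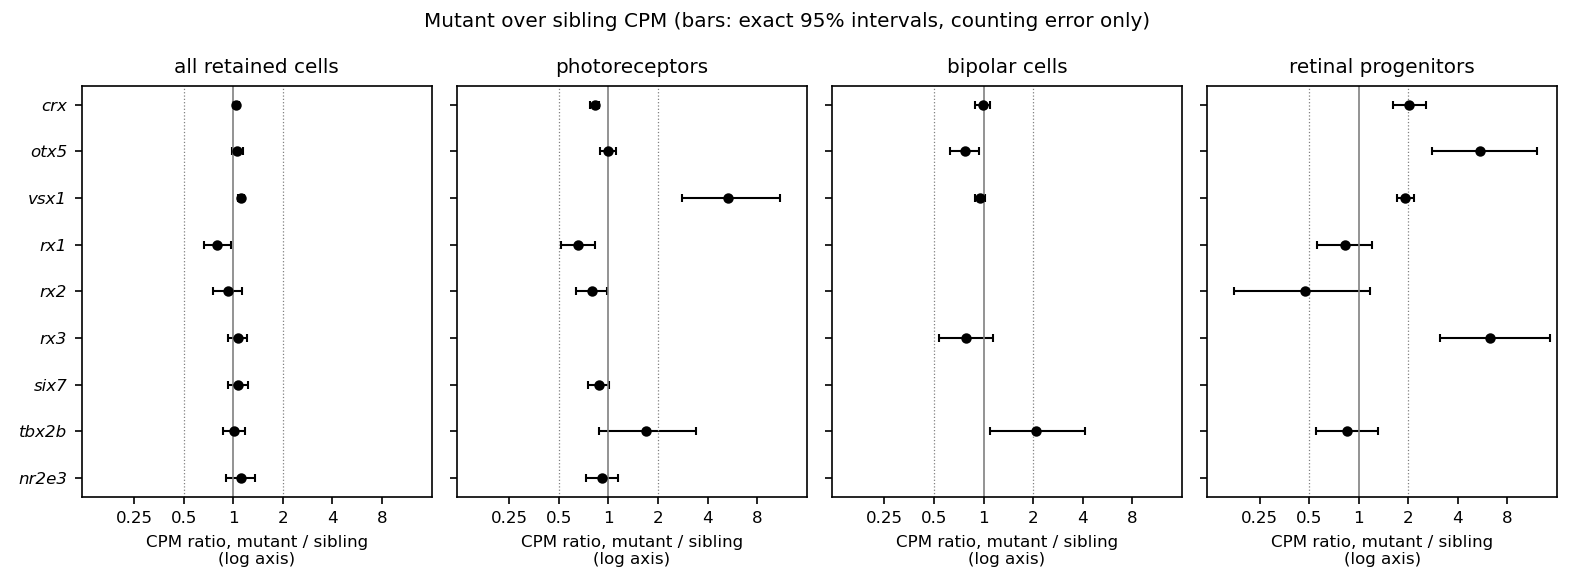
Ratio of mutant to sibling CPM (horizontal axis, logarithmic) for each gene over all retained cells, photoreceptors, bipolar cells and retinal progenitors, with exact 95% intervals. Only genes with at least 20 UMIs over both libraries are drawn, the solid line marks 1 and the dotted lines mark 2-fold. Values over all cells were within 2-fold of 1, and *crx*, *otx5* and *rx3* were at least 2-fold higher in progenitors gated from the mutant library. With only the purer clusters *crx* and *otx5* were not, but these clusters left out most mutant UMIs of both genes.

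Within bipolar cells, *vsx1* was 0.949 (0.888–1.01), *crx* 0.985 (0.891–1.09), *rx3* 0.783 (0.539–1.13) and *otx5* 0.766 (0.626–0.937) of the sibling level. *rx3* turned to 1.54 (1.21–1.98) with only the purer clusters. *tbx2b* was 2.07-fold higher (1.09–4.11), with 32 UMIs in mutants and 15 in siblings, and it was 1 of 5 genes past 2-fold, against 28.4% of the 5175 genes with enough UMIs in these cells. It was not past 2-fold with clusters, at 1.40 (0.826–2.397), with the purer clusters, at 1.86, or after thinning, at 1.17. Cycling genes were present in 133 of 316 mutant bipolar cells (42.1%, 36.6–47.7%) and 1 of 466 sibling bipolar cells (0.215%, 0.00543–1.19%), or 24.8% and 0% after thinning. Without these cells *crx* had a ratio of 1.14 (1.01–1.29), *vsx1* 1.06 (0.974–1.14), *otx5* 0.784 (0.604–1.01) and *tbx2b* 2.05 (0.934–4.50). In mutants the cycling bipolar cells had less *crx* and *vsx1* than the others, 979 CPM against 1338 CPM and 2289 CPM against 2860 CPM.

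Gated retinal progenitors had more *crx*, *otx5*, *vsx1* and *rx3* in the mutant library. The size of the difference depended on which cells were counted as progenitors. With only the purer clusters, given below, *crx* and *otx5* were no longer higher in mutants. *crx* had 238 UMIs in mutants and 111 in siblings, a ratio of 2.03 (1.61–2.57), and *vsx1* had 823 and 406, a ratio of 1.92 (1.70–2.17). *otx5* had 58 UMIs in 34 mutant cells and 10 UMIs in 7 sibling cells, a ratio of 5.49 (2.78–12.0). *rx3* had 60 UMIs in 10 mutant cells and 9 UMIs in 5 sibling cells, a ratio of 6.31 (3.11–14.5), and up to 19 of the mutant UMIs came from a single cell. Against a background of 7.71% of 6073 genes, 3 of 7 genes were at least 2-fold higher (*crx*, *otx5* and *rx3*) and 1 was at least 2-fold lower (*rx2*, 0.473, whose interval holds 1). The median ratio of the 7 genes was 1.92 and that of all genes 0.946. *rx1* had a ratio of 0.820 and *tbx2b* 0.850, both with intervals that hold 1. Cycling genes were present in 93.0% of mutant and 93.0% of sibling progenitors, and the median depth was 5728 UMIs in mutants and 7282 in siblings.

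Most *crx* UMIs of the progenitors lay in cells that also had *vsx1*, as did most *otx5* UMIs in mutants but not in siblings. A *vsx1* UMI was present in 135 of 214 mutant and 72 of 171 sibling progenitors. Those cells had 289 CPM of *crx* in mutants and 217 CPM in siblings, a ratio of 1.34 (1.05–1.72), and 51 and 3 UMIs of *otx5*, a ratio of 9.63 (3.11–48.2). Progenitors without a *vsx1* UMI had 20.3 CPM and 16.9 CPM of *crx*, a ratio of 1.20 (0.543–2.62), and 7 UMIs of *otx5* in either library, a ratio of 1.37 (0.411–4.58). For *crx* the interval in cells without *vsx1* is wide, and it holds both an equal level and the ratio of the whole class, while that of *otx5* holds an equal level and lies below the whole-class ratio of 5.49. *rx3* had 45 UMIs in mutant and 4 in sibling progenitors with *vsx1*, and 15 and 5 in those without. Of the progenitors with *crx*, 73 of 83 in mutants and 24 of 32 in siblings had *vsx1*, while 1 of 83 and 2 of 32 had *rx1*. *rx1* was found in 20 of 79 mutant and 25 of 99 sibling progenitors without *vsx1*, against 13 of 135 and 13 of 72 with it. The sizes of the progenitor ratios moved with the rule for a progenitor. For *rx3* it was 1.66 with 2 gate markers and 2.28 when cells with *elavl3*, a gene of postmitotic neurons, were kept, and for *otx5* 2.55 with 2 gate markers and 3.75 with *elavl3* cells. With clusters it was 18.9 for *rx3*, 21.8 for *otx5*, 4.01 for *crx* and 3.00 (2.71–3.31) for *vsx1*. One of the 2 mutant progenitor clusters also held bipolar cells, with 88 progenitors and 50 bipolar cells among 149 classed cells. Neither sibling progenitor cluster held a cell classed as bipolar. With only the purer clusters, which left 145 mutant and 148 sibling cells, the ratios were 0.946 (0.509–1.75) for *crx*, at 22 and 25 UMIs, and 1.25 (0.992–1.57) for *vsx1*. *otx5* had 3 and 4 UMIs there and *rx3* 8 and 3. The purer clusters also left out a sibling cluster, with 52 progenitors among 66 classed cells. All progenitor clusters held 678 mutant and 132 sibling *crx* UMIs, and 196 and 7 *otx5* UMIs. The purer ones thus left out most *crx* UMIs of both libraries and most mutant *otx5* UMIs. No excess of *crx* or *otx5* was seen in them, but they cannot tell whether one was present in the cells left out.

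Of the list of bipolar and progenitor factors, 3 of 11 genes were at least 2-fold higher in mutant progenitors and 0 lower, against 7.71% of all genes past 2-fold in either direction. The median ratio of the list was 1.16, against 0.946 for all genes. *bhlhe23*, a bipolar factor and bipolar gate marker, had 76 UMIs in mutants and 4 in siblings, a ratio of 18.0 (6.74–67.7). *irx6a* had 18 and 3, and *isl1*, an amacrine gate marker, had 25 and 5. Of the photoreceptor fate and subtype factors 0 of 8 were higher and 1 was lower. This was *thrb* with 2 UMIs in mutants and 32 in siblings, a thyroid hormone receptor gene needed for red cones. The part of these genes in the ratios of *crx*, *otx5*, *vsx1* and *rx3* was not tested.

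Other genes that act beside the 9 were counted in the same way. In photoreceptors, 0 of 12 photoreceptor fate and subtype factors were 2-fold apart between the genotypes, with a median ratio of 1.05. *neurod1*, a proneural factor, had 790 CPM in mutants and 974 CPM in siblings, *thrb* 228 CPM and 188 CPM, and *prdm1b* 227 CPM and 188 CPM. Genes of phototransduction, the cascade that turns light into a signal, were lower in mutants, 18 of 25 at least 2-fold lower and 0 higher against 8.56% of all genes in either direction, with a median ratio of 0.258. *opn1lw2*, a red opsin, had 591 CPM in mutants and 2612 CPM in siblings, a ratio of 0.226 (0.212–0.242). *arr3a*, the cone arrestin, had 1249 CPM and 3409 CPM, a ratio of 0.366 (0.349–0.385), and *rcvrn2* 1511 CPM and 2521 CPM. *rho* had 1 UMI in mutants and 39 in siblings. Cycling genes were higher in 5 of 11 and lower in 0, namely *mcm2* to *mcm6*. The median of all genes was 0.922.

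In bipolar cells, 9 of 9 cycling genes were at least 2-fold higher in mutants, with 389 UMIs of *pcna* in mutants and 16 in siblings, and 28.4% of all genes in these cells were past 2-fold in either direction. Of 8 bipolar and progenitor factors 0 were higher and 3 lower, a share near that of all genes. *irx6a* had 14 UMIs in mutants and 124 in siblings, a ratio of 0.109 (0.0581–0.191), *six3b* had 112 and 307, a ratio of 0.353, and *pax6a* had 5 and 18. *six3b* is a progenitor gate marker and *pax6a* an amacrine one, so their counts in bipolar cells are not independent of the gates. *bhlhe23* was 1118 CPM and 1079 CPM and *neurod4* 753 CPM and 924 CPM, both within 2-fold. These stand beside the ratio of 0.949 of *vsx1*.

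Over 9 classes in 2 libraries, 18 points, the gene whose log2(CPM + 10) was most like that of *crx* was *otx5*, with a Pearson r of 0.974. *otx5* was most like *stxbp1b* (r 0.989), *rx1* most like *prdm1b* (0.936) and then *rx2* (0.918), and *rx2* most like *akna* (0.981) and the blue opsin *opn1sw2* (0.970). *six7* was most like *pcare2* (0.999), and *nr2e3* had *six7* as its second gene (0.993). For *vsx1* the nearest gene was si:ch211-237l4.6 (0.917), for *rx3* it was *cables2b* (0.914), and for *tbx2b* it was *six3b* (0.839), which is a progenitor marker. The classes include Mueller glia, with only 5 mutant and 15 sibling cells, where 2 *tbx2b* UMIs made 102 CPM in mutants. The points share libraries, depths and gates, so these values describe likeness over the classes and are not tests.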

How the data were processed

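The authors made both libraries with the 10x Genomics 3′ kit and deposited UMI counts per gene and barcode, whole numbers that are not normalized. Their methods and the submitters' processing notes name Cell Ranger (5.1.0 in the notes, 5.0.0 in the header of the count matrices), Seurat 3.1.1, EmptyDrops and build GRCz11. A dense copy of the same tables was not used here. After the authors' limits, a barcode was kept if it had between 200 and 3000 genes, a UMI total below 20000 and a mitochondrial share below 15%, and the 7.5% with the highest Scrublet score were removed as doublets (scanpy 1.11.5). This left 7873 of 8799 mutant and 7539 of 8557 sibling barcodes. A doublet call of this kind removes a fixed share and can miss doublets.

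Cells were classed by marker lists, with at least 3 markers having a UMI (2 for brain regions, 3 for radial glia) and strictly more than any other class. Progenitors had no *elavl3* UMI. The alternatives were clusters (Leiden, resolution 2), 2 or 4 gate markers, no doublet removal, no upper limits, a 10% mitochondrial limit, thinning, scaling by the median of gene ratios and all deposited barcodes. Leaving out cells with cycling genes, *exorh* or *vsx1*, and clusters with at least 80% of classed cells of the named class, were added after seeing the data. The closing section gives their effect. UMIs were summed per class and library. Exact Poisson, Clopper-Pearson and conditional binomial 95% intervals were computed with scipy 1.17.1, numpy 2.4.6 and Python 3.11.15, and the code was tested on simulated data. A class without UMIs was given a limit of 3 counts. Genes were counted as differing at 2-fold with at least 20 UMIs over both sums. The text names the 9 genes, list genes with the most UMIs or the largest ratio, and the most alike genes among those with at least 50 UMIs. Genes named from *rx3* bipolar cells were chosen after their values were seen. The members, lists and markers were chosen with earlier results of these data known, and the rule for scoring the marker lists was set after the lists.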

Additional observations from a re-analysis of the deposited data

Results flagged for a closer look

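The 926 mutant and 1018 sibling barcodes outside the filters held 15328653 and 20031832 UMIs. Apart from the *rx1* and *rx2* counts given for progenitors, they entered no comparison above. For 3 of the 9 genes the mutant level in these barcodes was above the sibling level, with an interval above 1. This criterion was set after the values were seen. *rx3* had 86 UMIs in mutants and 25 in siblings, 5.61 CPM and 1.25 CPM, a ratio of 4.50 (2.85–7.33). Of the mutant UMIs, 74 lay in 11 barcodes with brain markers, and up to 20 in a single one. *vsx1* had 382 and 344 UMIs, 24.9 CPM and 17.2 CPM, a ratio of 1.45 (1.25–1.68). *tbx2b* had 174 and 167 UMIs, 11.4 CPM and 8.34 CPM, a ratio of 1.36 (1.09–1.69). These barcodes include those removed as doublets.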

How the results depend on the processing

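Of 171 alternative values of the genotype ratios over all cells and in the class where each gene was highest, 135 stayed within the counting interval of the value reported and 36 left it. Of 251 alternative values of the other results, such as levels, shares and ratios in other classes, 192 stayed within it, 56 left it and 3 took a 2-fold difference to the other side of 1. These counts include the lists of most alike genes, which have no interval. They were judged by the genes shared with a limit of at least 100 UMIs, where 8 counted as staying and 1 as leaving. Over all cells, without upper limits on genes and UMIs, the ratio was 1.17 for *crx*, 1.21 for *otx5*, 1.28 for *vsx1*, 0.965 for *rx1* and 1.31 for *rx3*. Over all deposited barcodes it was 1.15 for *crx*, 1.19 for *otx5*, 1.27 for *vsx1* and 1.35 for *rx3*. Scaled by the median of gene ratios it was 1.14 for *crx*, 1.16 for *otx5* and 1.22 for *vsx1*. Thinned to 1000 UMIs it was 0.866 for *crx*, 0.906 for *otx5*, 0.793 for *vsx1* and 0.792 for *rx3*. Without cells with cycling genes, an alternative chosen after seeing the data, it was 0.881 for *crx*, 0.786 for *otx5*, 0.749 for *vsx1* and 0.782 for *rx3*.

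In bipolar cells the median of gene ratios gave 1.16 for *crx* and 1.12 for *vsx1*, leaving out cells with cycling genes gave 1.14 for *crx* and 1.06 for *vsx1*, and at least 4 gate markers gave 1.11 for *vsx1*. In photoreceptors *otx5* was 1.16 without upper limits, 1.13 when thinned and 0.881 without cells with cycling genes. Clusters in place of gates gave 1.24 for *otx5*, 0.939 for *rx1*, 1.12 for *rx2*, 1.25 for *six7*, 1.16 for *nr2e3* and 0.892 for *vsx1*. Only the purer clusters, an alternative chosen after seeing the data, gave 1.28 for *otx5* and 1.4999 for *nr2e3* in photoreceptors, 1.54 for *rx3* in bipolar cells, and 0.946 for *crx* and 0.807 for *otx5* in progenitors, where the last rested on 3 and 4 UMIs. The cause was not tested. The filters and the doublet call together removed 30.3% of mutant and 30.4% of sibling *rx1* UMIs, and 19.8% and 28.1% of *rx2* UMIs. With 1 library per genotype, intervals cover counting error only. No paired analysis was possible because each genotype had 1 library.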
